A study of Rattus norvegicus with 36 samples.

Results

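The genes described here are 7 subunits of the GABA-A receptor, taken by symbol from the 20603 genes of the table: Gabra4, Gabra5 and Gabrd, which were set apart as extrasynaptic subunits, and Gabra2, Gabra3, Gabrb1 and Gabrb2, called the synaptic set. All 7 were found and all 7 passed the filter on low values, a median normalized count of at least 10, which 15837 genes passed. RNA came from frozen hippocampus of 36 female rats. The labels name 6 groups of 6 rats: aged 6 months (Reg6m, with no further word on the cycle), with a normal cycle at 9 months (Reg9m), with an irregular cycle at 9 months (Irreg9m), acyclic at 9 months (Acyc9m), acyclic at 16 months (Acyc16m), and given OVX (ovariectomy) at 9 months with data from 10 months (RegOVX10m). Strain is not given in the labels used here. The 36 columns of the table carry the tissue and a running number (hippo1 to hippo36), and nothing ties a column to a rat, so the libraries were taken as 1 set and no effect of age, cycle or ovariectomy was examined.

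GABA-A receptors are chloride channels built of 5 subunits around a pore, and they carry most of the fast inhibition in the brain. Receptors with alpha2 or alpha3 subunits are found mainly at synapses and pass brief currents. Receptors with alpha5 (in pyramidal cells) or with alpha4 and delta (in dentate granule cells) lie largely outside synapses and pass a steady, tonic current. The beta subunits form the GABA binding site together with an alpha subunit and are part of both kinds of receptor, so Gabrb1 and Gabrb2 stand in the synaptic set only because they are not among the 3 extrasynaptic genes. In tissue RNA, fewer cells of a type and less RNA per cell cannot be told apart.

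RefSeq promoters (250 bases before to 50 after the start of the gene, rat build GRCr8) were found for 6 of the 7 genes, all but Gabra2. The 4 below, 2 from each set, are shown so that the letters around the starts can be compared. Capitals mark each GC box (GGGCGG), EGR motif (GCGNGGGCG), cAMP response element (TGACGTCA) and TATA box (TATAAA), searched on both strands, with overlapping matches each counted.
Gabra4 promoter, GRCr8 chr14:36944497-36944796, plus strand: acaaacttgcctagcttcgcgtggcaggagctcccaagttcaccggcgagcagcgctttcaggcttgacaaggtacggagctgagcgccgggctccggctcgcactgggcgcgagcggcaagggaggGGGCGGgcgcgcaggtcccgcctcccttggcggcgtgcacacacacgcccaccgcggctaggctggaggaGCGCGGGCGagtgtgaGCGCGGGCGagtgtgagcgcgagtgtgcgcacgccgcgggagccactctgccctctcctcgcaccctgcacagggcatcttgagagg
Gabrd promoter, GRCr8 chr5:171252660-171252959, minus strand: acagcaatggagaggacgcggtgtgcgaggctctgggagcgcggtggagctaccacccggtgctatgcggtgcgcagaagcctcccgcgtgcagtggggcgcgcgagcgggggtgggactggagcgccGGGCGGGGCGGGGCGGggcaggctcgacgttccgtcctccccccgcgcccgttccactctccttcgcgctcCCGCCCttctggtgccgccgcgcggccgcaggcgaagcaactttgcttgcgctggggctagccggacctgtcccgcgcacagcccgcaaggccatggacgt
Gabrb1 promoter, GRCr8 chr14:36902844-36903143, minus strand: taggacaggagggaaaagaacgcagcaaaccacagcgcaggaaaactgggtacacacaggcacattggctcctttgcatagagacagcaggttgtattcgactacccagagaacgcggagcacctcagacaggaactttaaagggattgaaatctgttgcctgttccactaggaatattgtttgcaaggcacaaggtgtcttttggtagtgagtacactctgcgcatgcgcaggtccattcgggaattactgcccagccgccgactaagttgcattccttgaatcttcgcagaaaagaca
Gabrb2 promoter, GRCr8 chr10:27439543-27439842, plus strand: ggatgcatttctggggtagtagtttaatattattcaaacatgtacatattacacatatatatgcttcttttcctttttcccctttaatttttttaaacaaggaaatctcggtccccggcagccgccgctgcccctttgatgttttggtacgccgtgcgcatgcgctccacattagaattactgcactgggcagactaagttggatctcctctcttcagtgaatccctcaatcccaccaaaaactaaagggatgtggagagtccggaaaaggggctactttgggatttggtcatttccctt

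The 3 extrasynaptic promoters held 35 (Gabra4), 42 (Gabra5) and 40 (Gabrd) CpG dinucleotides and were 70.7%, 76.3% and 73.7% G or C. The synaptic set's promoters, without Gabra2, held 0 (Gabra3), 11 (Gabrb1) and 9 (Gabrb2) CpG and were 39.3%, 49.3% and 44.0% G or C. Whether the 2 sets differ in these measures was not tested. The median of 33469 rat promoters of the same length was 7 CpG and 51.7% G or C. A GC box was found once in Gabra4, once in Gabra5 and 4 times in Gabrd, and in none of the 3 promoters of the synaptic set; 33.1% of all promoters hold one. Gabra4 was the only one of the 6 with the EGR motif, which it held 2 times and which 4.98% of all promoters hold. Gabra3 held 1 TATA box, a motif in 14.2% of all promoters. None of the 6 held the cAMP response element, found in 1.83% of all promoters. These matches describe a window at 1 annotated start per gene and say nothing about binding.

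Counts were scaled by the submitters, and each column summed to between 3.4456e+07 and 3.59859e+07. The lowest values of a column lay near multiples of a common step, the value of 1 read, from which depth was estimated at 17.9 M reads in hippo30 and at 32.9 to 40.2 M reads in the other libraries. Markers of dentate granule cells (summed normalized count 11663 to 18802) and CA1 (23275 to 38483) were present in every library, while those of cerebellum summed to at most 228. Choroid plexus markers summed to 110.2 to 2022, highest in hippo8. Oligodendrocyte markers summed to 115024 to 312552, highest in hippo17. The leading 3 principal components held 8.28%, 7.08% and 6.02% of the variance. Correlations between whole libraries ran from 0.984 to 0.995, but 5 libraries (hippo2, hippo16, hippo17, hippo30 and hippo34) stood apart, with a median correlation to the others over 3 scaled median absolute deviations under the usual one. The main pair results are therefore also given without these 5.

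Among the extrasynaptic subunits, Gabra4 had the narrowest range. Gabra4, the alpha4 subunit that pairs with delta in granule cells, had a lowest normalized count of 4215 (hippo17), a median of 4841 and a highest of 5424 (hippo14). Its highest value was 1.29 times its lowest. Gabra5, the alpha5 subunit concentrated in hippocampal pyramidal cells, ran from 5364 (hippo17) over a median of 6375 to 7751 (hippo10), 1.45 times the lowest. The highest Gabra5 value stood alone, since the next was 7128 (hippo14). Gabrd, the delta subunit that marks extrasynaptic receptors, ran from 578 (hippo36) over a median of 708 to 907 (hippo32), a range of 1.57 times. In the 2 libraries with the lowest Gabrd, hippo36 and hippo7, Gabra4 was 4599, under its lower quartile of 4666, and 4835.

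In the synaptic set the highest values were 1.69 to 2.32 times the lowest. Gabra2, the alpha2 subunit, ran from 3137 (hippo17) over a median of 4300 to 5290 (hippo16), with the highest 1.69 times the lowest. Gabra3, the alpha3 subunit, ran from 672 (hippo4) over a median of 994 to 1440 (hippo2), 2.14 times the lowest. Gabrb1, a beta subunit, ran from 594 (hippo34) over a median of 1028 to 1380 (hippo16), 2.32 times the lowest. Its low end was set by 2 libraries, hippo34 and hippo13 (696), while its quartiles lay close together at 967 and 1074. Gabrb2, the beta2 subunit, ran from 576 (hippo10) over a median of 836 to 1120 (hippo20), 1.94 times the lowest. Hippo2 and hippo16 were the 2 highest libraries for Gabra3 and Gabrb1, and hippo17 was the lowest for Gabra2, Gabra4 and Gabra5.

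**Figure D1:**
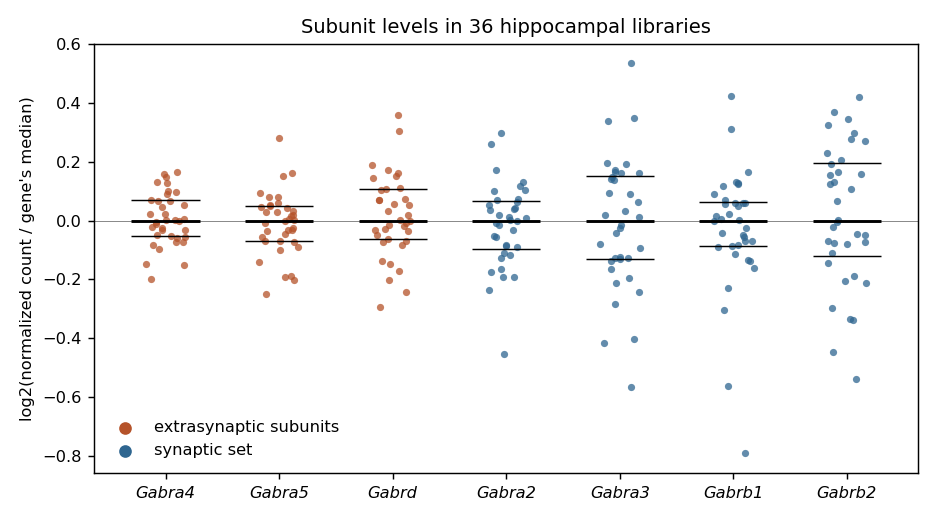
Level of each subunit in 36 libraries, as log2 of the normalized count over the gene's own median (vertical axis); each point is 1 library, the thick line the median and the thin lines the quartiles. The extrasynaptic subunits (left) range over 1.29 to 1.57 times, the synaptic set (right) over 1.69 to 2.32 times, with 2 low libraries for Gabrb1.

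Counting error sets a floor to these spreads. For Gabrd, it would give an interquartile width of 35.9 at the median of 708, and the observed width, which also holds differences between rats, was 84.7. For Gabrb2 the widths were 39.0 and 188. Among the 6771 genes whose medians lay between those of Gabrd and Gabra5, the highest value was typically 1.28 times the lowest (the median gene). Of these genes, 51.3% had a narrower range than Gabra4, 80.4% than Gabra5 and 89.3% than Gabrd. The shares were 93.4% for Gabra2, 98.3% for Gabra3, 98.8% for Gabrb1 and 97.0% for Gabrb2. The highest and lowest values rest on single libraries, and the interquartile width on the log2 scale did not part the sets. It was narrower than that of Gabra4 in 64.2% of these genes, than that of Gabra5 in 59.9% and than that of Gabrd in 87.2%, beside 84.6% for Gabra2, 98.2% for Gabra3, 80.5% for Gabrb1 and 98.9% for Gabrb2. Whether the spreads of the 2 sets differ was not tested.

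Levels of different subunits cannot be set against each other, because normalized counts rise with transcript length and no transcript lengths were given. How their ratios moved between libraries can be described. Log2 of the extrasynaptic sum over the sum of the synaptic set ran from 0.34 (hippo2) over a median of 0.73 to 1.07 (hippo10), so the ratio changed 1.66 times between libraries. Within the extrasynaptic set the ratio of Gabra5 to Gabrd moved most, from 6.72 (hippo17) over a median of 9.01 to 12.1 (hippo10). The ratio of Gabra4 to Gabrd ran from 5.28 (hippo17) over 6.82 to 8.08 (hippo7). Gabrd made up 4.79% (hippo7) to 7.70% (hippo17) of the counts of the 3 extrasynaptic genes.

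Across the 36 libraries, most pairs of subunits in the synaptic set were positively correlated, and no pair of extrasynaptic subunits passed the test. Pearson's r was computed on log2(normalized count + 1), with a two-sided permutation test of 100000 resamples and Benjamini-Hochberg adjustment over 110852 tests, every other gene against each of the 7 subunits. Called means an adjusted p under 0.05. Within the synaptic set, 5 of 6 pairs were called, all positive, with r between 0.37 and 0.69 (median 0.61). Within the extrasynaptic set, 0 of 3 pairs were called (r −0.42, 0.10 and 0.27), and 1 of the 3 had an unadjusted permutation p under 0.05. Of the 12 pairs between the sets 0 were called (median r −0.15), and 3 had an unadjusted p under 0.05; Spearman's rho likewise called 0 in both. Against all genes, 9.38% of the tests of the synaptic set were called positive and 6.6% negative. For the extrasynaptic set 3.86% were called in either direction, 2.04% positive and 1.82% negative. Over all 7 subunits 6.23% were called positive and 4.55% negative. The libraries hold 6 labelled groups of 6 rats that could not be separated, so differences between groups may enter every r, and the permutation test treats the libraries as exchangeable. Whether 1 pair's r differs from another's was not tested.

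**Figure D2:**
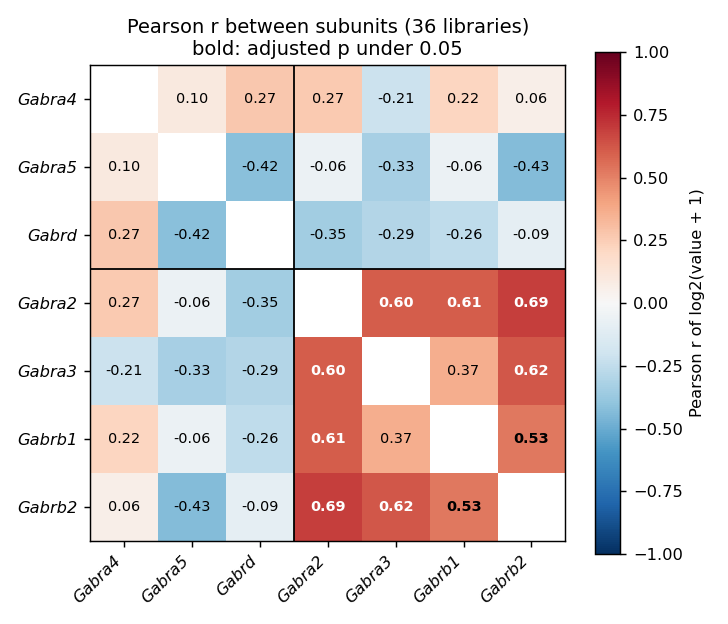
Pearson's r of log2(normalized count + 1) between each pair of subunits across 36 libraries, with colour from blue (−1) to red (1) and bold print for an adjusted p under 0.05. Bold values, 5 pairs, lie in the block of the synaptic set (lower right), and the extrasynaptic block (upper left) runs from −0.42 to 0.27.

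Gabra2 and Gabrb2, an alpha and a beta subunit encoded on different chromosomes, formed the closest pair (r = 0.69, rho = 0.70, adjusted permutation p = 0.000695). Of the 36 libraries, 26 lay on the same side of both medians. Gabra3 and Gabrb2 followed (r = 0.62, rho = 0.58, adjusted permutation p = 0.00221), then Gabra2 and Gabrb1 (r = 0.61, rho = 0.77, adjusted permutation p = 0.0039) and the 2 alpha genes Gabra2 and Gabra3 (r = 0.60, rho = 0.63, adjusted permutation p = 0.0039). The beta genes Gabrb1 and Gabrb2 had r = 0.53 and rho = 0.59 (adjusted permutation p = 0.0129). Without the 2 libraries farthest from the first gene's median these 5 pairs had r of 0.71, 0.54, 0.56, 0.62 and 0.54, all still called. Gabra3 and Gabrb1 had r = 0.37 and were not called (adjusted permutation p = 0.149), and r was 0.28 without the 2 farthest libraries. By rank the 2 genes gave rho = 0.54, which was called (adjusted permutation p = 0.0153), and r was 0.49 without hippo13 alone (adjusted permutation p = 0.0396). Without hippo13 and hippo34, the 2 low libraries of Gabrb1, r was 0.67 (adjusted permutation p = 0.00175) and all 6 pairs were called. That setting was chosen after seeing the data. Without the 5 libraries that stood apart, 4 of the 6 pairs were called, and Gabrb1 with Gabrb2 was not (r = 0.35, adjusted permutation p = 0.254).

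The levels of the synaptic set were correlated with the leading axis of the whole transcriptome. The first principal component had r of 0.83 with Gabra2, 0.80 with Gabra3, 0.55 with Gabrb1 and 0.75 with Gabrb2, against −0.02 with Gabra4, −0.24 with Gabra5 and −0.33 with Gabrd. With that component regressed out of every gene, 0 of the 6 pairs of the synaptic set were called, and r lay between −0.19 and 0.32. Among all 110852 tests, 2.62% were then called, against 10.8% before.

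Gabra5 and Gabrd, the principal subunits of the 2 kinds of tonic receptor, had the lowest r within the extrasynaptic set. The value was −0.42 (95% interval −0.66 to −0.11, from Fisher's transformation) and rho was −0.45, with a permutation p of 0.0102 before adjustment and 0.0758 after it. In 12 of 36 libraries both lay on the same side of their medians. The r was −0.34 without the 2 libraries farthest from the Gabra5 median (adjusted permutation p = 0.214). It was −0.43 without the 5 libraries that stood apart (adjusted permutation p = 0.121), and neither was called. The pair was called when columns were rescaled to a common total (r = −0.47, adjusted permutation p = 0.04), with the first principal component removed (r = −0.55, adjusted permutation p = 0.0301), and without hippo2 or hippo21 (r = −0.48 and −0.47, adjusted permutation p = 0.0455 and 0.043). Gabra4 and Gabrd, which assemble into the same receptor in granule cells, had r = 0.27 (interval −0.07 to 0.55), rho = 0.26 and an adjusted permutation p of 0.333. Leaving out the 2 libraries farthest from the Gabra4 median gave r = 0.42, not called either (adjusted permutation p = 0.0995), and leaving out the 5 libraries that stood apart gave 0.32. Gabra4 and Gabra5 had r = 0.10 (interval −0.24 to 0.42), with rho = 0.13 and an adjusted permutation p of 0.775, and the sign depended on hippo17, without which r was −0.06.

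**Figure D3:**
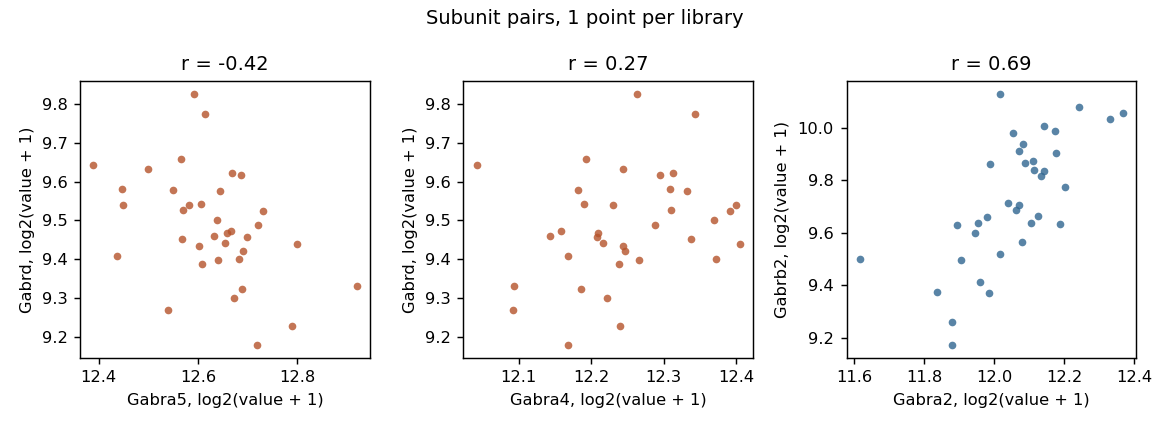
Pairs of subunits on log2(normalized count + 1) axes, 1 point per library: Gabra5 with Gabrd (r = −0.42), Gabra4 with Gabrd (r = 0.27) and Gabra2 with Gabrb2 (r = 0.69). The cloud falls in the first panel, is broad in the middle one and rises in the last.

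Between the sets, Gabra5 and Gabrb2 had the most negative r, −0.43 (interval −0.67 to −0.12), with rho = −0.38 and an adjusted permutation p of 0.0678. This pair was called without hippo17 (r = −0.54, adjusted permutation p = 0.00991), without hippo34 (r = −0.48, adjusted permutation p = 0.0342), without hippo36 (r = −0.48, adjusted permutation p = 0.0376) and without the 5 libraries that stood apart (r = −0.56, adjusted permutation p = 0.0248). Its direction turned with the granule cell, CA1 and CA2 and CA3 marker sums regressed out (r = 0.08, adjusted permutation p = 0.833), and r was −0.20 with 3 principal components removed (adjusted permutation p = 0.609). Gabrd had negative r with all 4 genes of the synaptic set, from −0.35 with Gabra2 to −0.09 with Gabrb2, none of them called. Without the 5 libraries these were −0.27 and 0.03. Gabra4 had r of 0.27 with Gabra2, 0.22 with Gabrb1, 0.06 with Gabrb2 and −0.21 with Gabra3, none called. Without the 5 libraries the values were 0.06, 0.14, −0.03 and −0.26.

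**Figure D4:**
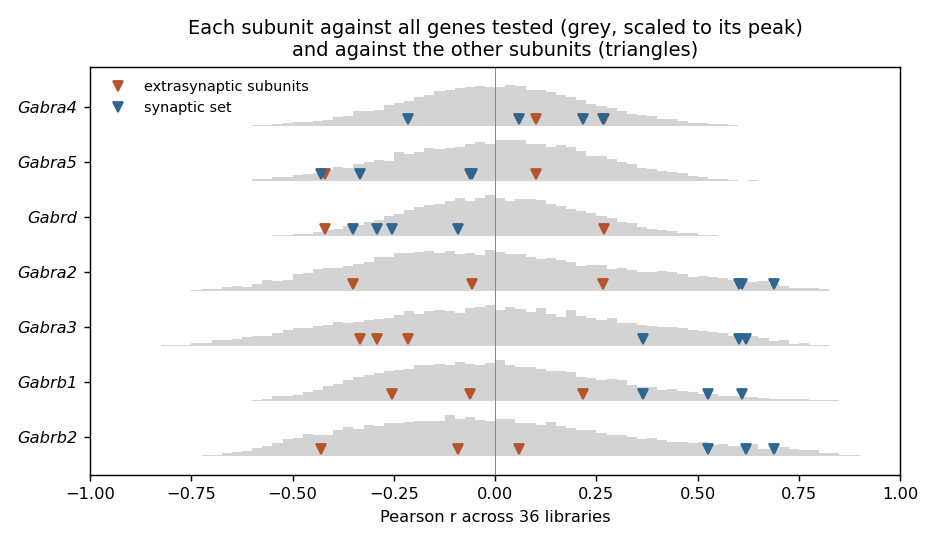
Pearson's r of each subunit with all genes tested (grey histogram, scaled to its own peak) and with the other subunits (triangles), across 36 libraries. In the rows of the synaptic set its own triangles lie right of 0, between 0.37 and 0.69, while the extrasynaptic triangles lie between −0.43 and 0.27 in all rows.

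In the RefSeq annotation Gabrb1 and Gabra4 are neighbours on opposite strands, and Gabra2 and Gabrg1, the gamma1 subunit, follow on the same chromosome. Gabra2 with Gabrb1 was called, while Gabra4 with Gabra2 (r = 0.27) and Gabra4 with Gabrb1 (r = 0.22) were not. Gabrg1 was called with none of the 3, with r of −0.08 with Gabra4, 0.22 with Gabra2 and 0.34 with Gabrb1. Gabra3 is on the X chromosome and Gabrb2 on chromosome 10, and this pair was called. Gabrq, the theta subunit, is also on the X chromosome, and it was called with Gabra3 (r = 0.63, rho = 0.68, adjusted permutation p = 0.00196). Gabra5 and Gabrg3, the gamma3 subunit, are both on chromosome 1 and were not called (r = −0.41, adjusted permutation p = 0.0895). Whether r follows the position of the genes was not tested.

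Fewer genes were called with each extrasynaptic subunit than with each subunit of the synaptic set, a difference that was not tested. With an adjusted permutation p under 0.05 in either direction, 4.04% of 15836 genes were called with Gabra4, 5.27% with Gabra5 and 2.29% with Gabrd. The shares were 17% with Gabra2, 18.9% with Gabra3, 8.68% with Gabrb1 and 19.3% with Gabrb2. By direction, 2.26% were positive and 1.78% negative with Gabra4, 2.56% and 2.71% with Gabra5, and 1.3% and 0.985% with Gabrd. The same shares were 10.2% and 6.81% with Gabra2, 9.76% and 9.15% with Gabra3, 6.21% and 2.48% with Gabrb1, and 11.4% and 7.94% with Gabrb2. The 4 genes most like each subunit by r over the 36 libraries were named by a fixed rule, and their r values are a description. For Gabra4 they were Lgi1 (r = 0.75, rho = 0.74), a secreted synaptic protein, LOC100910717 (r = 0.73), Abi1 (r = 0.72), an actin regulator, and Kctd4 (r = 0.72). For Gabra5 they were Dynlt3 (r = 0.74, rho = 0.71), a dynein light chain, Cpe (r = 0.73), the carboxypeptidase that matures neuropeptides, Fgfr1op2 (r = 0.72) and Stmn2 (r = 0.72), a microtubule regulator of neurons. For Gabrd they were Ppp1r1a (r = 0.69, rho = 0.68), an inhibitor of protein phosphatase 1, Fam163b (r = 0.66), LOC100362216 (r = 0.64) and Pitpnm2 (r = 0.63).

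In the synaptic set the closest genes reached higher r. For Gabra2 they were the protocadherins Pcdh19 (r = 0.88, rho = 0.84) and Pcdh17 (r = 0.88), the guanine deaminase Gda (r = 0.86) and the cell adhesion gene Cntn1 (r = 0.86). For Gabra3 they were Prkacb (r = 0.88, rho = 0.81), a catalytic subunit of protein kinase A, Peg3 (r = 0.86), an imprinted zinc finger gene, Gprasp1 (r = 0.85) and the adhesion molecule Cadm1 (r = 0.85). For Gabrb1 they included Birc6 (r = 0.88, rho = 0.68), Cep350 (r = 0.88) and Prkdc (r = 0.88), the DNA-dependent protein kinase, all genes with very long coding sequences. For Gabrb2 they were the ubiquitin ligase Ubr3 (r = 0.92, rho = 0.92), the sialyltransferase St8sia3 (r = 0.91), the synaptic scaffold Tanc2 (r = 0.90) and Zyg11b (r = 0.90). The r values named came with an adjusted permutation p of at most 0.00138. Without the 2 libraries farthest from the subunit's median, r of the first gene named was 0.73 for Gabra4, 0.66 for Gabra5, 0.68 for Gabrd, 0.80 for Gabra2, 0.82 for Gabra3, 0.70 for Gabrb1 and 0.90 for Gabrb2.

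Across genes, r with a subunit of the synaptic set rose with the length of the gene in the RefSeq annotation. A RefSeq span was found for 85.1% of the genes tested. Spearman's rho between span and r over 13475 genes, which are not independent replicates, was 0.38 for Gabra2, 0.41 for Gabra3, 0.33 for Gabrb1 and 0.46 for Gabrb2. It was 0.02 for Gabra4, −0.31 for Gabra5 and −0.25 for Gabrd. The subunit genes' own spans were 136 kb (Gabra2), 242 kb (Gabra3), 484 kb (Gabrb1) and 220 kb (Gabrb2). Those of the extrasynaptic set were 76.9 kb (Gabra4), 113 kb (Gabra5) and 11.9 kb (Gabrd). Beside Gabra5, 2125 of 13475 genes spanned at least 100 kb. The part of gene span in the correlations between subunits was not tested. For Gabrb2 the median r was 0.28 over genes of at least 100 kb and −0.23 over genes under 10 kb. The 115 genes for ribosomal proteins and respiratory chain subunits, picked by symbol and not by span, summed to 437401 to 519020 per library. Their sum had r of −0.64 with Gabrb2 (rho = −0.67, adjusted permutation p = 0.00063), −0.52 with Gabra2 (rho = −0.48, adjusted permutation p = 0.0154) and −0.49 with Gabra3 (rho = −0.52, adjusted permutation p = 0.0292). Without the 2 libraries farthest from the median of the sum, r was −0.61 with Gabrb2 and −0.50 with Gabra2, both called, and −0.46 with Gabra3, not called (adjusted permutation p = 0.054). It had r of −0.04 with Gabrb1, and 0.20, 0.31 and 0.19 with Gabra4, Gabra5 and Gabrd, none called. With this sum regressed out, 3 of the 6 pairs of the synaptic set were called, with r from 0.40 to 0.69, and Gabra5 with Gabrd was called (r = −0.51, adjusted permutation p = 0.0258). No RNA integrity value was given, and its part in these relations was not tested.

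Some cell type marker sums were correlated with subunits of either set. In each of 13 lists the markers' normalized counts were summed per library and log2 sums were correlated with the 7 subunits. The 13 sums, the ribosomal and respiratory sum and the estimated depth made 105 relations, over which these p-values are adjusted. Gabra4 followed the granule cell markers (r = 0.68, rho = 0.64, adjusted permutation p = 0.000525), and 4 of the 6 markers were called with it in the test against all genes. Gabrd had r = 0.35 with the same sum (rho = 0.36, adjusted permutation p = 0.174), with 1 of 6 markers called. Without the 2 libraries farthest from the median of the sum, r was 0.58 with Gabra4 (adjusted permutation p = 0.0084) and 0.50 with Gabrd, which was then called (adjusted permutation p = 0.024). Gabra5 followed the CA2 and CA3 markers (r = 0.63, rho = 0.53, adjusted permutation p = 0.00105; 2 of the 5 markers tested were called) and the pan-neuronal markers (r = 0.47, rho = 0.44, adjusted permutation p = 0.0359). Of the pan-neuronal markers, 2 of 4 were called with it. Without the 2 farthest libraries the CA2 and CA3 relation was still called (r = 0.58, adjusted permutation p = 0.0084) and the pan-neuronal one was not (r = 0.43, adjusted permutation p = 0.0802). With the CA1 sum Gabra5 had r = −0.007 (rho = −0.06), not called, and 0 of 5 CA1 markers were called with it. With the granule cell sum Gabra5 had r = −0.26, not called.

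The same CA2 and CA3 sum was negatively correlated with 2 of the 4 genes of the synaptic set. It had r of −0.71 with Gabra3 (rho = −0.65, adjusted permutation p = 0.000525) and −0.65 with Gabrb2 (rho = −0.63, adjusted permutation p = 0.000525), with 3 of 5 markers called negative with each. With Gabra2 and Gabrb1 it had r of −0.32 and −0.33, not called (adjusted permutation p = 0.205 and 0.194), and −0.08 and −0.07 without the 2 farthest libraries. Gabra3 was also lower where CA1 markers were high (r = −0.63, rho = −0.60, adjusted permutation p = 0.000875), with 2 of 5 markers called negative. Gabra2 was lower where oligodendrocyte markers were high (r = −0.75, rho = −0.55, adjusted permutation p = 0.000525), with all 5 markers called. Without the 2 libraries farthest from the median of each sum, r was −0.60, −0.59, −0.55 and −0.53 for these 4 relations in turn, all still called. Gabra2 also had r = 0.54 with the interneuron sum (rho = 0.29, adjusted permutation p = 0.029) and r = 0.49 with the pan-neuronal sum (rho = 0.42, adjusted permutation p = 0.0292). Of the markers, 2 of 7 and 1 of 4 were called with it. Both relations with the sums rested on the 2 farthest libraries, without which r was 0.29 and 0.24 (adjusted permutation p = 0.386 and 0.479). Gabra3 had r = 0.35 with the interneuron sum, not called (adjusted permutation p = 0.174), with 1 of 7 markers called. This relation was called by rank (rho = 0.49, adjusted permutation p = 0.0259) and without the 2 farthest libraries (r = 0.52, adjusted permutation p = 0.0218). Regressing the granule cell, CA1 and CA2 and CA3 sums out of every gene left 4 of the 6 pairs of the synaptic set called. In the same values Gabra5 with Gabrd was called (r = −0.54, adjusted permutation p = 0.0212), Gabrd with Gabra2 was called (r = −0.51, adjusted permutation p = 0.0348), and Gabra4 with Gabrd came to r = −0.05. Estimated depth had r between −0.16 and 0.16 with the 7 subunits, none called.

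**Figure D5:**
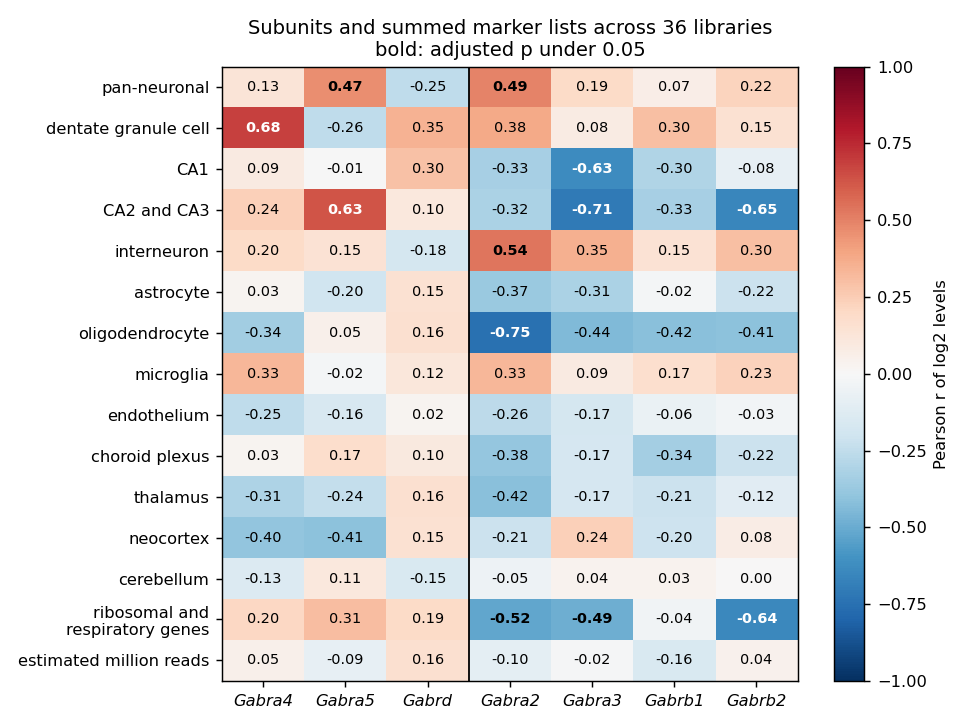
Pearson's r across 36 libraries between each subunit (columns) and the log2 summed level of each marker list, of ribosomal and respiratory genes, and of estimated depth (rows), with bold print for a p under 0.05 adjusted over 105 relations. Granule cell markers are bold with Gabra4 alone (0.68), and CA2 and CA3 markers are 0.63 with Gabra5 but −0.71 and −0.65 with Gabra3 and Gabrb2.

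Further genes of GABA signalling came from a list of 47, comprising the other receptor subunits in the table and genes of GABA synthesis, transport and synapse assembly. Of these 40 were found in the table by symbol and 39 passed the filter. With the extrasynaptic subunits few of these were called: 1 of 39 was called with Gabra4, 0 with Gabra5 and 1 with Gabrd, or 2.56%, 0% and 2.56% against 4.04%, 5.27% and 2.29% of all genes. The one called with Gabra4 was Gabrr3, a rho subunit (r = 0.52, rho = 0.49, adjusted permutation p = 0.0212), at a median normalized count of only 37.7. The one called with Gabrd was Gabrq, the theta subunit, which was negative (r = −0.46, rho = −0.47, adjusted permutation p = 0.0465) and had a median of 21.9. Without the 2 libraries farthest from the subunit's median the r values were 0.47 and −0.45.

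With the synaptic set, 8 of the 39 were called positive and 1 negative for Gabra2, 6 and 0 for Gabra3, 3 and 0 for Gabrb1, and 10 and 2 for Gabrb2. In either direction these are 23.1%, 15.4%, 7.69% and 30.8% of the list, beside 17%, 18.9%, 8.68% and 19.3% of all genes, and median r over the list was 0.17, 0.08, −0.01 and 0.14. Among the 11 other receptor subunits, 4, 5, 2 and 4 were called positive and 0 negative with Gabra2, Gabra3, Gabrb1 and Gabrb2. These are 36.4%, 45.5%, 18.2% and 36.4% of the 11, beside 10.2%, 9.76%, 6.21% and 11.4% of all genes called positive. Whether these shares differ was not tested. The genes below were chosen after their values were seen, and Gad2 is also one of the interneuron markers. Gabrg3, the gamma3 subunit, was called with all 4 genes of the synaptic set, most closely with Gabrb2 (r = 0.79, rho = 0.81, adjusted permutation p = 0.000695). Erbb4, the neuregulin receptor of interneurons, was called with Gabrb1 (r = 0.83, rho = 0.66, adjusted permutation p = 0.000695), Gabrb2 (r = 0.73) and Gabra2 (r = 0.55). Gad2, a GABA-synthesizing enzyme, was called with Gabra2 (r = 0.69, rho = 0.57, adjusted permutation p = 0.00105) and Gabrb2 (r = 0.50). The interneuron markers Gad1 and Slc32a1 were called with neither. Their r was 0.46 and 0.40 with Gabra2 (rho = 0.21 and 0.08), and 0.16 and 0.19 with Gabrb2. Of the 7 interneuron markers, 2 were called with Gabra2 and 1 with Gabrb2. Lhfpl4, which brings receptors to inhibitory synapses, was called with Gabra2 (r = 0.64, rho = 0.45) and Gabrb2 (r = 0.60, rho = 0.67). Without the 2 libraries farthest from the subunit's median, r of Lhfpl4 was 0.47 and 0.55. Slc12a5, the chloride exporter KCC2, was called with Gabrb2 (r = 0.60, rho = 0.57, adjusted permutation p = 0.00566). The negative calls with Gabrb2 were Gabarap, a receptor trafficking protein (r = −0.70, rho = −0.66, adjusted permutation p = 0.000695), and Dbi, the diazepam binding inhibitor (r = −0.52, rho = −0.51, adjusted permutation p = 0.016). Without the 2 farthest libraries, r was 0.80 for Gabrg3 with Gabrb2, 0.64 for Erbb4 with Gabrb1, 0.49 for Gad2 with Gabra2, 0.49 for Slc12a5, −0.60 for Gabarap and −0.43 for Dbi with Gabrb2.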

How the data were processed

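The authors deposited 1 table of normalized counts per gene, a signal that is not scaled to transcript length. Per the submitters' processing notes kallisto 0.43 and DESeq2 were used, with no role stated; the reference transcriptome, strand setting and any batches are not stated in these sources. The 36 columns were matched to the tissue alone and used as 1 set; 0 other columns were left out. The planned correction for transcript length was not made, since no lengths were given. Low values lay within 0.1 of a whole multiple of 1 read for 84.4% to 92.9% of values under 20 reads per column, so depth is an estimate. Values were analysed as log2(value + 1) with numpy 2.4.6 and pandas 2.3.3 under Python 3.11.15; the permutation test was checked on simulated data. The smallest p its 100000 resamples can give is 1e-05; leaving out 1 library used 20000. Members, lists and rules were chosen with the members' symbols and earlier results of these data known, and the ribosomal and respiratory list after seeing the data. Genes named by rule are the 4 with the highest r per subunit and listed GABA genes called with an extrasynaptic subunit. Further listed GABA genes were named outside this rule, those given with the synaptic set after their values were seen. Alternatives covered pseudocount, filter, scaling, rank correlation, components, markers and left-out libraries. Permutation p-values measure how often shuffling a subunit's values over the libraries gave an r at least as far from 0. A few genes that the lists or the rule cover are not reported here by name.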

Additional observations from a re-analysis of the deposited data

How the results depend on the processing

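No paired analysis was possible because the columns carry no replicate numbers shared between groups. The 5 calls within the synaptic set and the 0 between and within the other pairs were the same with pseudocounts of 0.5 and 10, with no filter or a median of at least 50, at a common upper quartile, and without the 2 farthest libraries. By rank, and also without hippo13 and hippo34, 6 pairs were called within the synaptic set. Rescaling to a common total called 1 extrasynaptic pair, Gabra5 with Gabrd, as did removing 1 component, removing 3 components, and regressing out ribosomal and respiratory genes or field markers. Removing 1 or 3 components left 1 called pair of 21 in all and 0 within the synaptic set; regressing out ribosomal and respiratory genes left 3 within it. Without the libraries that stand apart, without hippo13 and hippo34, or with field markers regressed out, 1 pair between the sets was called. Leaving out each library in turn gave 5 to 6 called pairs: 5 to 6 within the synaptic set, 0 to 1 within the extrasynaptic set and 0 to 1 between them. These alternatives with left-out named libraries, regressed-out genes and 3 components were chosen after seeing the data; the cause of each change was not tested.

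Signs turned as follows. For Gabra4 with Gabra5, r was −0.16 without the 2 farthest libraries, −0.041 without those standing apart and −0.059 at the lowest when 1 was left out, against 0.28 at the highest. Gabra4 with Gabrd gave −0.051 with field markers regressed out. Gabra4 with Gabrb1 gave −0.070 with 3 components removed. Gabra4 with Gabrb2 gave −0.018 by rank, −0.028 without the libraries standing apart and −0.065 to 0.15 leaving out 1. Gabra5 with Gabra2 gave 0.26 (1 component), 0.13 (ribosomal and respiratory), 0.26 (field markers), 0.35 (3 components) and −0.33 to 0.058 leaving out 1. Gabra5 with Gabra3 gave 0.0082 with field markers regressed out. Gabra5 with Gabrb1 gave 0.087 (1 component), 0.24 (field markers), 0.28 (3 components) and −0.18 to 0.049 leaving out 1. Gabra5 with Gabrb2 gave 0.083 with field markers regressed out. Gabrd with Gabrb2 gave 0.25 (1 component), 0.028 (libraries standing apart left out), 0.039 (ribosomal and respiratory) and 0.31 (3 components). Gabra2 with Gabra3 gave −0.19 and −0.017 with 1 and 3 components removed, Gabra3 with Gabrb1 −0.15 with 1, and Gabra3 with Gabrb2 −0.33 with 3. The log2 difference of the sets, 0.73 from sums, was 2.26 from set medians. The planned scaling by transcript length was not run, as no lengths were given. Depth limits the genes with the lowest counts most, such as Gabrq (median 21.9).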
